A study of Rattus norvegicus with 3 samples.

Results

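The cells described here are 677 of the 5815 single cells kept from injured rat spinal cord, sorted out of 1235 oligodendrocytes by a score that sets Klk6, Hapln2, S100b and Apod against Opalin, Masp1, Tspan2 and Gpd1. A cell counted as an oligodendrocyte when the unique molecular identifiers (UMIs, counted RNA molecules) of Mog, Mag, Cldn11 and Ermn came to at least 5 per 10000 and those of the phagocyte genes Cd68 and Tyrobp to less than 10 per 10000. Within the 1235 oligodendrocytes each score was the mean z value of its 4 genes, named A for the first 4 and B for the second 4, and a cell was a member when A exceeded B, so the members were chosen by the measured levels of these genes. There were 181 members of 320 oligodendrocytes in the PBS library, 214 of 380 in the G-HD library and 282 of 535 in the MPG-HD library. The 558 cells on the opposite side of the score are called the other oligodendrocytes.

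All 3 libraries came from wild-type Rattus norvegicus aged 6 to 8 weeks with a spinal cord injury, and differed in what was injected at the lesion: PBS, the hydrogel depot G-HD or the hydrogel depot MPG-HD. The PBS control was therefore also injured and injected. For each condition 5 animals were used, and a 5-mm stretch of cord around the injury was dissociated with collagenase and trypsin, passed through a strainer, freed of red cells and run on a 10x Chromium 3′ kit. The labels give 1 library per condition and no key from cells to animals, so differences between libraries carry no test, and each 95% interval covers counting error alone. The libraries held 1513, 2619 and 2339 barcodes in the order PBS, G-HD, MPG-HD, of which 1377, 2347 and 2091 passed a minimum of 200 genes and a maximum of 20% UMIs from mitochondria. Between libraries 21 barcodes were shared, 3 of them in members.

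Oligodendrocytes wrap axons in the central nervous system with myelin, a stack of membrane held together by proteins such as Mbp and rich in cholesterol and galactolipids. After they differentiate from precursors they pass from a newly formed to a myelinating and then a long-lived mature state, and mature cells of the spinal cord are known to carry Klk6, a secreted serine protease that is abundant there. Hapln2 encodes a link protein that anchors hyaluronan and proteoglycan at the node of Ranvier, S100b a calcium-binding protein found in several glial types, and Apod a lipocalin that carries lipids. On the opposing side, Opalin is a myelin membrane protein, Masp1 a complement-type serine protease, Tspan2 a tetraspanin and Gpd1 the cytosolic glycerol-3-phosphate dehydrogenase.

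The label of mature oligodendrocyte held for most members and failed for many. It was checked with 8 myelin genes that the score does not use (among them Mbp, Mobp, Cnp, Mal, Ugt8, Gjb1 and Plekhb1). Their summed level fell into a high and a low range among members, with 34 cells between 100 and 200 per 10000. After the data were seen, a member was called myelin-rich at 200 or more of these UMIs per 10000 and fewer than 20 per 10000 of Schwann cell markers (among them Prx, Pmp2, Ncmap, Cdh19 and Ngfr). By this measure 402 members were myelin-rich and 275 were myelin-poor. The myelin sum had a median of 493 per 10000 UMIs in the myelin-rich members, 42.5 in the myelin-poor members and 2.54 in the 4580 remaining cells of the libraries. In the myelin-poor members 267 of 275 cells had both scores below 0, against 20 of 402 myelin-rich members, so most of them were members because B was lower still. Their median A level was 22.7 UMIs per 10000 against 419 in the myelin-rich members, and their median B level was 0.

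**Figure D1:**
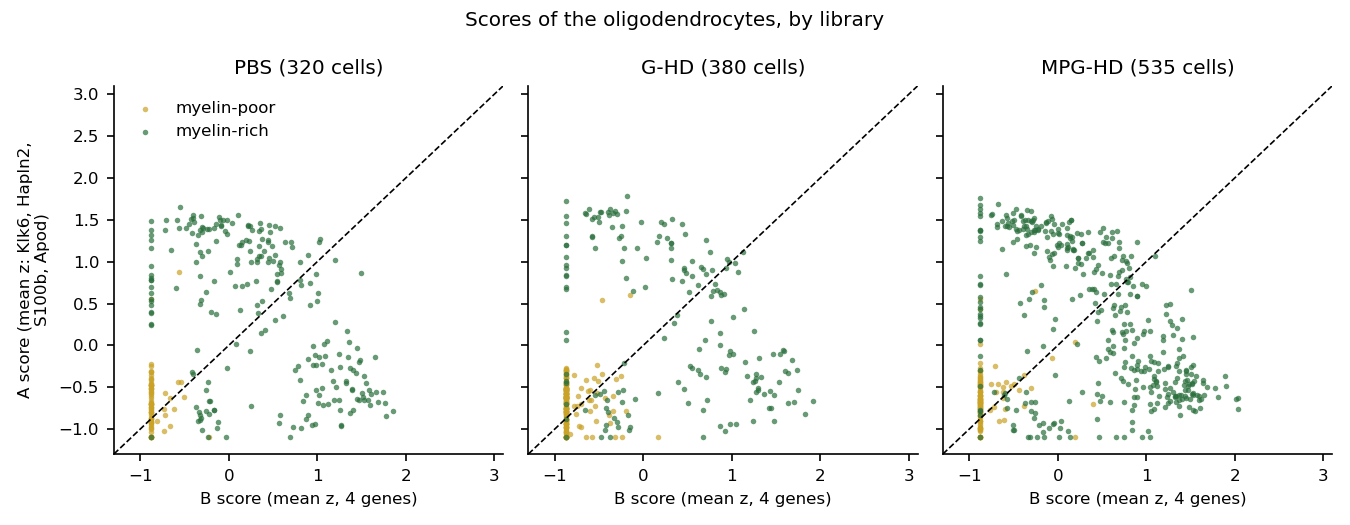
The A score (mean z of Klk6, Hapln2, S100b and Apod, vertical) against the B score (mean z of Opalin, Masp1, Tspan2 and Gpd1, horizontal) for each oligodendrocyte, with 1 panel per library. Each point is 1 cell, green where it was myelin-rich and yellow where it was myelin-poor; cells above the dashed line are members, and the myelin-poor members gather in the lower left corner, most densely in G-HD.

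The myelin-poor share was not the same in the 3 libraries. Myelin-rich cells made up 70.2% (exact 95% interval 62.9 to 76.7) of the members in PBS, 37.9% (31.3 to 44.7) in G-HD and 68.8% (63.0 to 74.2) in MPG-HD. Among the other oligodendrocytes the share was 81.3%, 60.2% and 87.0% in the same order. The myelin-poor cells were shallower, with a median of 5591 UMIs against 10966.5. Of all kept cells, myelin-rich members were 9.22% (7.75 to 10.9) in PBS, 3.45% (2.75 to 4.27) in G-HD and 9.28% (8.07 to 10.6) in MPG-HD. Since these are shares of dissociated cells in 1 library each, a change in other cell types would move them too.

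Markers of other cells sat in the myelin-poor members. The 6 Schwann cell genes summed to 2966, 2566 and 3615 counts per 1000000 UMIs (CPM) in the myelin-poor members of PBS, G-HD and MPG-HD, and to 67.5, 76.1 and 55.8 in the myelin-rich members. The 4 fibroblast genes (Col1a1, Col3a1, Dcn and Lum) summed to 3355, 4464 and 3724 CPM in the myelin-poor and to 15.2, 25.7 and 17.4 in the myelin-rich members. Of all members, 61 cells held at least 10 Schwann UMIs per 10000, 76 cells at least 10 fibroblast UMIs and 31 at least 10 astrocyte UMIs. The limit on Schwann markers that defines the myelin-rich cells fixes part of the Schwann contrast. In the myelin-rich members of PBS, G-HD and MPG-HD the 7 astrocyte genes summed to 41.0, 46.3 and 34.5 CPM, with Slc1a2 and Aldh1l1 at 0 UMIs in every library, and the 6 microglia genes to 41.0, 42.1 and 38.0 CPM, with Cx3cr1 and Siglech at 0. Of the precursor genes, Pdgfra was also at 0, while C1ql1 had 3, 6 and 7 UMIs. Macrophage genes stood higher, at 296, 530 and 195 CPM over 8 genes, near their level in the myelin-rich other oligodendrocytes (277, 447 and 215). The 6 neutrophil genes summed to 11.3, 508 and 1.94 CPM. Because of this split each comparison below is given for the myelin-rich members. For gene lists the count over all members is added where its share differs by more than 1.5 times.

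The genes that defined the score had the following levels, which describe the choice and test nothing. In myelin-rich members of PBS, G-HD and MPG-HD, Klk6 stood at 3785, 4326 and 3905 CPM, and in the myelin-rich other oligodendrocytes at 384, 488 and 377. Hapln2 stood at 1474, 1637 and 1387 CPM in the members, 14.4, 11.8 and 15.5 times its level in the others. The corresponding ratios were 23.7, 10.5 and 12.6 for S100b and 6.61, 5.62 and 5.43 for Apod. With each cell thinned to 2000 UMIs and shallower cells left out (29 of 127 cells in PBS, 16 of 81 in G-HD, 30 of 194 in MPG-HD), Klk6 was seen in 95.9%, 95.4% and 94.5% of myelin-rich members. Without thinning it was seen in 90.6%, 90.1% and 89.2% of them. In the phagocytes, whose median depth was 11258, 11983 and 11931 UMIs against 10782, 11190 and 11174, thinned Klk6 was seen in 0.716%, 0.848% and 1.22% of cells. Among myelin-poor members thinned Klk6 was seen in 3.85%, 3.20% and 2.41% of cells, and S100b in 84.6%, 72.8% and 83.1%. Thus Klk6 was in nearly all myelin-rich and few myelin-poor members, whereas S100b was in most cells of both kinds.

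Near the threshold the score separated little. There were 127 cells within 0.1 of equal scores, 62 of them members and 14 of these myelin-rich. The 10 members just inside had A above B by at most 0.0185, with median levels of 4.12 per 10000 for A, 0 for B and 5.54 for the myelin genes. The 10 cells just outside had A minus B of -0.0134 or higher, with 8.91, 0.265 and 88.2 per 10000.

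Of the 4 selection genes, which the rule also used, Ermn (ermin, a cytoskeletal protein of the myelin sheath) went the opposite way from the rest. Its level was 1579, 1292 and 1523 CPM in the myelin-rich members of PBS, G-HD and MPG-HD, 2.91, 2.90 and 2.88 times that in the myelin-rich other oligodendrocytes. Mag, an adhesion protein on the axon-facing side of the sheath, was at 0.536, 0.653 and 0.608 of its level in the others, and Cldn11, the tight-junction protein of myelin, at 0.470, 0.544 and 0.519. Mog, at the outer surface of the sheath, was nearly level, at 0.803, 0.893 and 0.907.

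Many genes outside the rule separated the members from the other oligodendrocytes in each library, as a split of the same cells must to some extent, and they are given as a description. Among genes with at least 50 UMIs in the 2 sums together in each library, 3.69% of 4280 were at least 2-fold higher in myelin-rich members in all 3 libraries and 3.36% at least 2-fold lower. Over all members the shares were 2.78% and 1.69% of 5729 genes. The named genes below are the first 15 in each direction by the smallest of the 3 ratios.

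Several of the leading genes act in signalling. Rasgrp3, an exchange factor that activates Ras proteins, was at 177, 154 and 159 CPM in the myelin-rich members of PBS, G-HD and MPG-HD and at 0.704, 4.23 and 2.05 in the myelin-rich others. Hopx, a small homeodomain protein without DNA binding of its own, was at 501, 355 and 392 CPM against 5.63, 10.2 and 6.15. Ramp3, which gives calcitonin-type receptors their ligand preference, was at 136, 138 and 136 CPM against 0, 5.93 and 0. Taking 3 UMIs per library as the limit for a count of 0, Ramp3 was at least 64.5-fold higher in PBS and at least 132-fold higher in MPG-HD, and 23.2-fold higher in G-HD. In all 3 genes the levels of members in different libraries lay far nearer to each other than to the others of the same library. The ranking by the smallest of the 3 ratios favours such genes. Cntf, a trophic factor for neurons and glia, was lower in level but likewise apart, at 69.5, 65.8 and 66.3 CPM against 4.93, 9.31 and 7.52.

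Calcium-binding and lipid-binding proteins were a second group. S100a1, a relative of S100b, was at 930, 830 and 949 CPM in the members against 47.9, 77.0 and 80.7 in the others. Anxa5, an annexin that binds phosphatidylserine, had ratios of 8.77, 10.7 and 7.13 in PBS, G-HD and MPG-HD. Efhd2, an EF-hand protein, had ratios of 12.2, 6.68 and 8.92. On the list of S100 and annexin genes 7 of 10 measured genes were at least 1.5-fold higher in PBS, 6 of 11 in G-HD and 6 of 10 in MPG-HD. S100b, which the rule used, is not on this list. Among all genes with at least 10 UMIs, 17.5%, 15.7% and 17.6% were that much higher and 21.5%, 21.5% and 16.4% that much lower. Against the direction of the list, Anxa2 was at 0.342, 0.658 and 0.388 of its level in the others.

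Among the remaining higher genes 3 encode enzymes. Uchl1, a deubiquitinating enzyme best known from neurons, was at 332, 243 and 329 CPM in the members against 16.9, 7.62 and 23.9. Bace2, an aspartyl protease, had ratios of 26.1, 20.6 and 29.2. Gpx2, a glutathione peroxidase, had ratios of 39.9, 23.6 and 14.3. The other genes named as higher were Dpysl5, a cytoskeletal regulator of the collapsin response mediator family (25.7, 23.5 and 21.1), Ctnnal1, an alpha-catenin relative (16.2, 18.9 and 16.3), the transporter Slco3a1 (6.91, 9.31 and 7.58), Smim5 (25.6, 13.7 and 51.8) and Cfap410 (12.5, 11.4 and 9.54).

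Genes lower in the members included several of axon contact and outgrowth. Cntn1, the contactin that joins myelin to the axon at the paranode, was at 2.65, 0 and 0.775 CPM in the members against 54.9, 50.8 and 35.6 in the others. Nfasc, its neurofascin partner at the same junction, was at 124, 123 and 124 CPM against 650, 507 and 455. On the list of genes of contact with the axon, 5 of 10, 7 of 10 and 6 of 11 measured genes were at least 1.5-fold lower in PBS, G-HD and MPG-HD (21.5%, 21.5% and 16.4% of all genes) and 1, 0 and 1 higher. Over all members the counts lower were 4 of 11, 5 of 12 and 5 of 12 (17.1%, 13.9% and 12.2% of all genes), and the median log2 ratios were 0.05, -0.18 and 0.10 against -1.23, -1.07 and -1.87 in the myelin-rich cells. Dpysl4, a relative of Dpysl5, had ratios of 0.0424, 0.0255 and 0.0599, opposite in direction to Dpysl5. The receptor Ntrk2, which binds brain-derived neurotrophic factor, had ratios of 0.0258, 0.103 and 0.0508. Pcdh17 and Lsamp, both adhesion proteins of neural cells, had ratios of 0.0121, 0.0574 and 0.0749 and of 0.0723, 0.125 and 0.133.

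Other named genes lower in the members had varied roles. Rras2, a Ras-family GTPase, was at 1.32, 18.5 and 12.8 CPM in PBS, G-HD and MPG-HD against 172, 201 and 157. Pnlip, known as the pancreatic lipase, had ratios of 0.00878, 0.0420 and 0.107. Marcks, an actin-regulating substrate of protein kinase C, had ratios of 0.0791, 0.156 and 0.109, and Glrb, the beta subunit of the glycine receptor, 0.143, 0.0524 and 0.122. Slc9a3r2, Pcolce, Ttyh1, Fstl1, Gng3 and Emp3 completed the 15, with ratios between 0.0383 and 0.165.

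**Figure D2:**
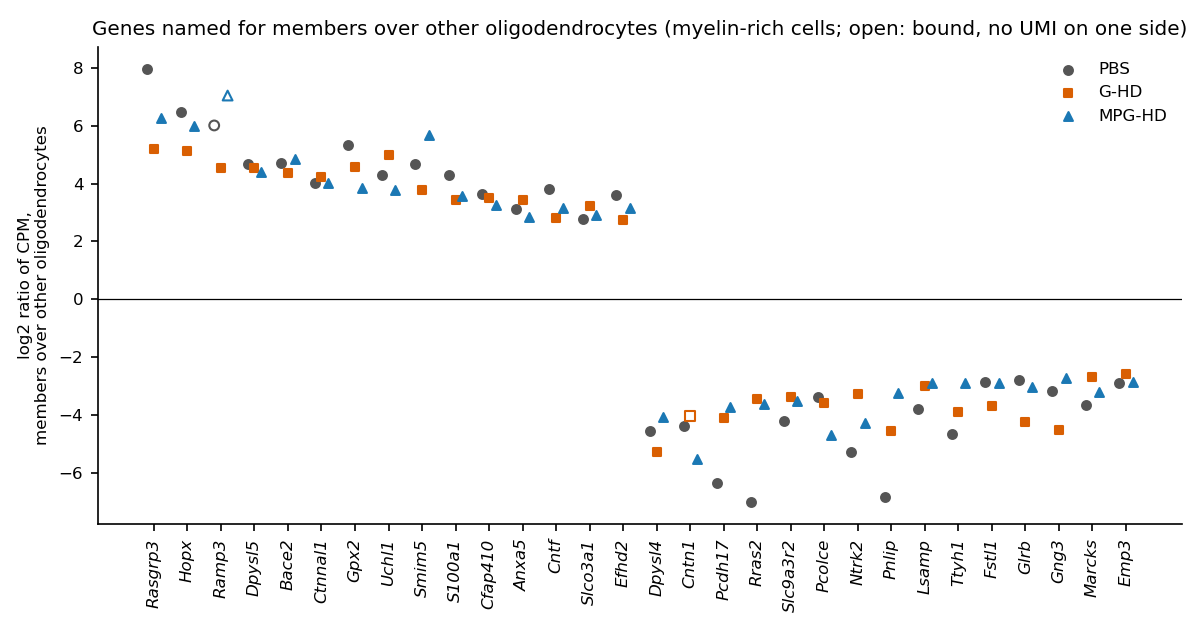
The log2 ratio of CPM in myelin-rich members over myelin-rich other oligodendrocytes, for the 15 genes named as higher and the 15 named as lower; each symbol is 1 library. An open symbol is a bound taken where 1 side had no UMI, as for Ramp3 in PBS and MPG-HD and Cntn1 in G-HD.

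With the myelin-poor cells included, the same rule named genes of another kind. Lgi4, Fxyd7, Rxrg, Art3, Fxyd1, Entpd2, Fxyd3 and Ednrb then came among the first 15 higher genes, with Schwann cell markers at 764, 1295 and 699 CPM over all members of PBS, G-HD and MPG-HD. Their part in the result was not tested. Rasgrp3, Dpysl5, Ramp3, Uchl1, Hopx, Smim5 and Cntf were named both with and without the myelin-poor cells.

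The genes did not all move along the score in the same way. The 835 myelin-rich oligodendrocytes of all libraries were put in 5 bins of 167 cells by A minus B, with 0, 0, 68, 167 and 167 members from the lowest bin to the highest. Hopx ran through 2.6, 4.5, 27.3, 139 and 695 CPM and Rasgrp3 through 1.3, 0.4, 15.9, 80.2 and 252, so most of their RNA lay in the top bin. Cntf ran through 3.4, 7.1, 24.2, 69.5 and 73.0 CPM and Slco3a1 through 3.0, 10.2, 46.4, 104 and 85.0, so both were near their highest level by the fourth bin. Among the lower genes, Pnlip ran through 46.8, 434, 258, 6.7 and 0.4 CPM, Marcks through 70.4, 354, 361, 30.8 and 7.5 and Glrb through 34.7, 105, 154, 10.1 and 0.8. These 3 were highest in a middle bin and not at the low end. Cntn1 instead dropped at each step, through 61.3, 38.7, 8.9, 1.7 and 0.4 CPM. Mbp also went down at each step, from 14321 to 6091 CPM, and Cnp from 9861 to 5131. Bins are of 1 score over the same cells, so this is a description.

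**Figure D3:**
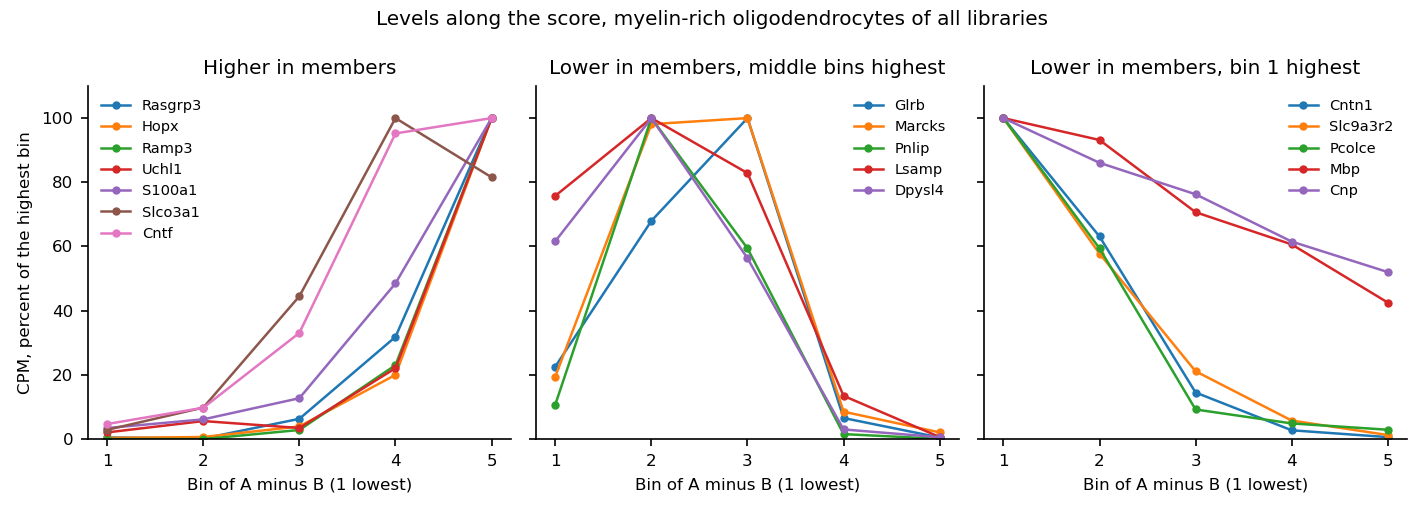
Levels along A minus B in 5 equal bins of myelin-rich oligodendrocytes of all libraries, each gene as a percent of its own highest bin. The left panel holds genes higher in members, the middle panel genes with their highest level in a middle bin such as Pnlip, Marcks and Glrb, and the right panel genes highest in the lowest bin such as Cntn1, Mbp and Cnp.

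Mbp was at a lower level in the members, although both sides were required to be myelin-rich, which limits how far it can differ. Mbp, myelin basic protein, was at 7528, 7188 and 7609 CPM in the myelin-rich members of PBS, G-HD and MPG-HD and at 13461, 13731 and 12859 in the others. Each library of the members lay below each library of the others. Of 13 measured genes of compact myelin, 7, 6 and 6 were at least 1.5-fold lower (21.5%, 21.5% and 16.4% of all genes) and 3 higher in each library, with median log2 ratios of -0.78, -0.57 and -0.55 against -0.09, -0.10 and -0.04 for all genes. Plekhb1, a membrane-associated protein of myelinating cells and 1 of the 8 genes of the myelin sum, went the other way, with ratios of 3.57, 4.50 and 4.18.

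Genes of newly formed oligodendrocytes were lower as well. On that list 11 of 12, 10 of 11 and 8 of 12 measured genes were at least 1.5-fold lower in PBS, G-HD and MPG-HD (21.5%, 21.5% and 16.4% of all genes), with median log2 ratios of -1.77, -1.15 and -1.04. Tcf7l2, a transcription factor of the early differentiation step, was at 9.92, 24.7 and 14.3 CPM in the members against 146, 128 and 94.7. Bmp4, a growth factor that premyelinating cells make, was at 22.5, 25.7 and 27.1 CPM against 169, 165 and 88.9. Olig2, which defines the lineage, had ratios of 0.420, 0.464 and 0.417. The 11 measured lineage transcription factors as a list were near the share of all genes: 3, 3 and 2 were at least 1.5-fold lower, where 21.5%, 21.5% and 16.4% of all genes were, and 1, Hopx, was higher.

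Genes that other atlases list for late mature cells included some of the most abundant ones higher in the members. On that list 9 of 15, 6 of 13 and 9 of 15 measured genes were at least 1.5-fold higher in PBS, G-HD and MPG-HD (17.5%, 15.7% and 17.6% of all genes), a minority of the list in G-HD, and 3, 3 and 2 were lower (21.5%, 21.5% and 16.4%). Ptgds, the prostaglandin D synthase, was at 6458, 6445 and 7015 CPM in the members against 2251, 2237 and 2143 in the others. Tf, the iron carrier transferrin, was at 17597, 17127 and 16894 CPM against 8138, 8158 and 8466. Qdpr, which regenerates tetrahydrobiopterin, was at 3125, 2050 and 2456 CPM against 913, 652 and 731. For all 3 genes the member libraries lay above each library of the others.

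The heavy chain of ferritin and several genes of defence against oxidation were higher in the members. Fth1, the heavy chain of ferritin, was at 25034, 18642 and 22746 CPM in the members and at 4636, 4320 and 4500 in the others, 5.40-, 4.32- and 5.05-fold apart. Ftl1, the ferritin light chain, was nearly equal, with ratios of 1.07, 0.812 and 0.888. Of 15 antioxidant and metallothionein genes 8 were at least 1.5-fold higher in each library (17.5%, 15.7% and 17.6% of all genes) and 1, 2 and 1 lower, while over all members of G-HD 4 of 15 were higher (17.8%). Gpx4, which reduces lipid peroxides, had ratios of 2.95, 3.56 and 3.60, and Gstp1, a glutathione transferase, 2.21, 2.31 and 2.02. Mt1, a metallothionein, was lower, at 0.416, 0.347 and 0.591.

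The 2 main lactate dehydrogenase subunits went opposite ways. Ldhb, the lactate dehydrogenase subunit that favours lactate use, was at 415, 517 and 442 CPM in the members of PBS, G-HD and MPG-HD against 159, 152 and 154. Ldha, the subunit that favours lactate formation, was at 60.9, 65.8 and 51.1 CPM against 245, 289 and 229. Aldoc, aldolase C, had ratios of 5.91, 6.17 and 13.7 and Pfkm, the muscle-type phosphofructokinase, 9.21, 9.41 and 7.75. The list as a whole had 5 of 11, 6 of 11 and 5 of 13 genes at least 1.5-fold higher (17.5%, 15.7% and 17.6% of all genes) and 2, 1 and 3 lower, near the 21.5%, 21.5% and 16.4% of all genes. Over all members of G-HD 3 of 12 were higher (17.8%).

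Some genes of protease inhibition, ion handling and fatty acid synthesis also differed between members and others. They are single genes, and no count over their lists is given here. Cst3, the secreted inhibitor cystatin C, was at 6691, 5303 and 5913 CPM in the members against 1106, 1261 and 1591. Serpine2, a serine protease inhibitor, was at 0.128, 0.160 and 0.182 of its level in the others. The sodium pump subunit Atp1b3 was at 1003, 846 and 875 CPM against 189, 212 and 240, and the gap junction protein Gjb1, connexin 32 and 1 of the 8 myelin genes, at 931, 1040 and 961 against 443, 454 and 438. Scd2, a fatty acid desaturase, had ratios of 3.49, 3.20 and 4.00. Cholesterol synthesis genes were at least 1.5-fold lower for 11 of 17 in PBS, 6 of 17 in G-HD and 4 of 17 in MPG-HD, where 21.5%, 21.5% and 16.4% of all genes were, and 1, 0 and 1 were higher. The MPG-HD count was near the share of all genes. These counts are of levels summed over cells, and the median cell differed little. The list UMIs per 10000 had medians of 8.67, 9.79 and 8.63 in the myelin-rich members of PBS, G-HD and MPG-HD. In the myelin-rich others the medians were 8.90, 9.46 and 8.07. The counts therefore do not show a lower level in the typical member.

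Between libraries, members as a whole differed most in G-HD. Among genes with at least 50 UMIs in the 2 sums together, 375 of 6273 (5.98%) were at least 2-fold above PBS in the G-HD members, while 80 (1.28%) were at least 2-fold below. MPG-HD against PBS had 33 of 6644 (0.497%) higher and 101 (1.52%) lower, and MPG-HD against G-HD 45 of 6791 (0.663%) higher and 544 (8.01%) lower. These 3 comparisons share libraries pairwise, so they are not independent. In the myelin-rich members alone the counts were 51 of 4525 (1.13%) and 24 (0.53%) for G-HD against PBS, 31 of 5576 (0.556%) and 29 (0.52%) for MPG-HD against PBS, and 27 of 5277 (0.512%) and 41 (0.777%) for MPG-HD against G-HD. Of the 375 genes higher in G-HD members, 30 were also among the 51 of the myelin-rich members, which is 8% of the former and 58.8% of the latter. Only 63 of the 375 had enough UMIs in the myelin-rich cells to be tested there.

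Genes named over all members therefore need both values. Igfbp7, a secreted binding protein of vessels and stroma, was 9.39-fold higher in G-HD over all members and 2.37-fold higher in myelin-rich members, where it had 29 UMIs in G-HD and 19 in PBS. In the myelin-poor members its level was 341, 1720 and 776 CPM in PBS, G-HD and MPG-HD. Pltp, the phospholipid transfer protein, was 6.76-fold higher over all members and 1.13-fold in the myelin-rich ones. Cpz, Cxcl12 and Angptl4 were 9.17-, 7.70- and 6.54-fold higher over all members with at most 2 UMIs in the myelin-rich cells of either library. The myelin-poor members held 39 of 133 cells with at least 10 fibroblast UMIs per 10000 in G-HD and 18 of 54 in PBS, and their part in these genes was not tested. Car2, Sbsn, Rsrp1 and Strn were the named lower genes whose ratio stayed under 0.5 in the myelin-rich members.

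**Figure D4:**
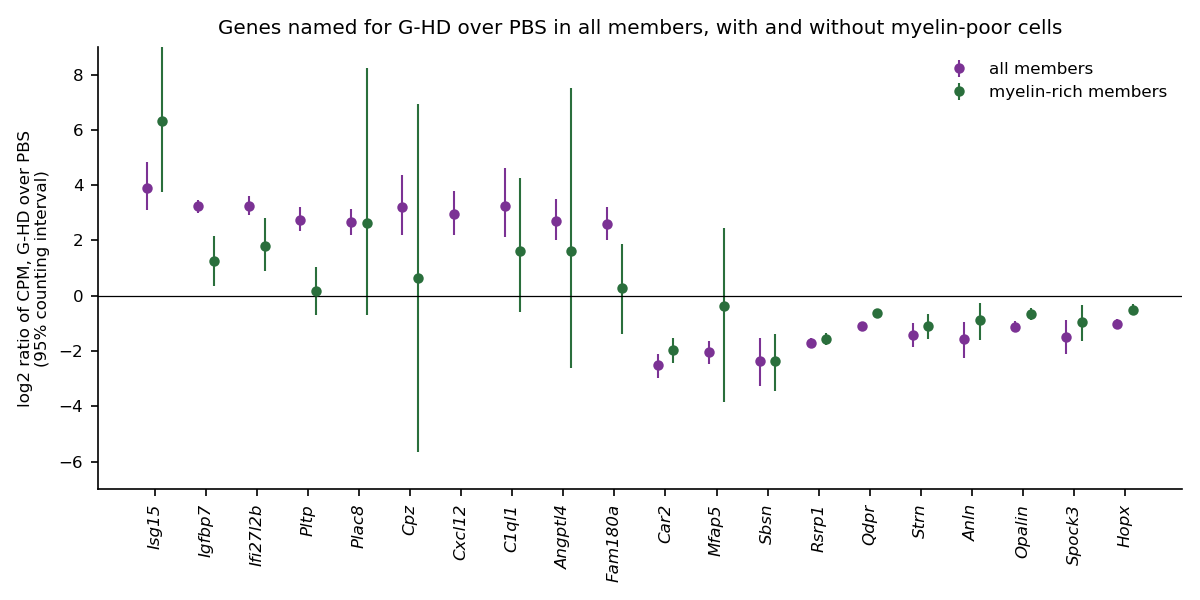
The log2 ratio of CPM in G-HD over PBS, with 95% counting intervals, for the 10 higher and 10 lower genes named over all members; purple points are all members, green points myelin-rich members. Cxcl12 has no green point because the myelin-rich PBS cells had 0 UMIs, the interval of Isg15 runs past the axis, and Pltp and Fam180a lie near 0 without the myelin-poor cells.

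In the myelin-rich members the genes named for G-HD against PBS included a regulator of RNA, a transporter and interferon-response genes. Ybx1, which binds RNA and DNA, was at 48.3, 133 and 70.5 CPM in PBS, G-HD and MPG-HD, and Ybx1-ps3, a copy that may share its reads, at 27.8, 94.6 and 69.0. The ratio of Ybx1 for G-HD over PBS was 2.75 (2.04 to 3.71) in the members, 2.66 in the myelin-rich others and 2.13 in the remaining cells. Slc1a1, a glutamate transporter, was at 10.6, 38.0 and 20.1 CPM, 3.59-fold higher in G-HD with an interval of 1.95 to 6.92, against 1.04 in the other oligodendrocytes. It rested on 16 UMIs in the myelin-rich members of PBS. In the myelin-rich others Slc1a1 was much higher in every library, at 182, 189 and 132 CPM. Gpnmb, a glycoprotein abundant in phagocytes, was at 49.0, 118 and 50.8 CPM. It was also highest in G-HD in the myelin-rich others, at 71.8, 107 and 59.5 CPM, and in the remaining cells, at 4234, 6267 and 4190. The sum of the macrophage markers was also highest in G-HD, but Gpnmb is among those markers, so that sum is no separate comparison. The part of macrophage RNA in the level of Gpnmb was not tested. Oas1f, Rtp4, Ifitm1 and Ifi27 were also named and belong to the interferon response.

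Fewer genes were lower in G-HD. Car2, carbonic anhydrase 2, an enzyme of myelinating cells that handles bicarbonate, was at 202, 51.4 and 113 CPM, a ratio of 0.255 (0.185 to 0.344) for G-HD over PBS. Sbsn, which encodes suprabasin, was at 52.3, 10.3 and 45.3 CPM. Rsrp1, an arginine- and serine-rich protein, was at 650, 220 and 329 CPM, 0.339 of PBS in the members and 0.670 in the other oligodendrocytes. Taf9, Rbm39, Strn, Crbn, Arrdc3, Dpysl2 and Golga1 made up the 10, with ratios between 0.283 and 0.466.

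MPG-HD against PBS gave Taf10, a subunit of the transcription factor TFIID, at 64.2, 142 and 158 CPM across PBS, G-HD and MPG-HD. Against PBS it stood 2.47-fold higher (1.97 to 3.11) in the myelin-rich members, 2.63-fold in the myelin-rich others and 2.00-fold in the remaining cells. Lgals9, a galectin, was at 7.28, 22.6 and 24.8 CPM, 3.41-fold higher (1.78 to 7.17) in the members and 1.33-fold in the others. Sdf2l1, a chaperone of the endoplasmic reticulum, was at 70.8, 101 and 145 CPM, 2.05-fold higher (1.65 to 2.56) against 1.02 in the others. Gal3st1, which makes sulfatide for myelin, was at 33.1, 64.8 and 66.3 CPM, 2.00-fold higher in MPG-HD against 1.36 in the others. Lower were C1qtnf9, a secreted C1q-family protein, at 105, 77.1 and 41.5 CPM, the phosphatase Dusp26 at 26.5, 2.06 and 8.91, and the proteoglycan Spock3 at 58.2, 29.8 and 24.0. Both hydrogel libraries lay above PBS for Taf10, Lgals9, Sdf2l1 and Gal3st1 and below it for C1qtnf9, Dusp26 and Spock3.

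MPG-HD against G-HD gave the reverse of G-HD against PBS for Car2 and Sbsn in the myelin-rich members. Car2 was 2.19-fold higher (1.62 to 3.02) in MPG-HD in the members and at 0.657 (0.489 to 0.888) in the other oligodendrocytes. Sbsn was 4.41-fold higher. Hmgcs1, an early enzyme of cholesterol synthesis, was at 0.386 in the members and 0.450 in the others. Spp1, osteopontin, was at 49.0, 87.4 and 34.5 CPM in PBS, G-HD and MPG-HD, 0.395 of G-HD in MPG-HD, against 0.361 in the myelin-rich others. The remaining cells held Spp1 at 4360, 5377 and 2917 CPM, in the same order of libraries, and the part of RNA from those cells was not tested.

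Interferon-response genes were higher in the G-HD members. These genes are switched on when interferon binds its receptor and factors such as Stat2 and Irf9 reach an element of paired GAAA-type repeats in their promoters. Of 16 measured genes on the list, 15 were at least 1.5-fold higher and 0 lower in myelin-rich members of G-HD against PBS, where 12% of all 7983 genes were that much higher and 12% lower. The median log2 ratio was 1.41 against 0.02 for all genes. For MPG-HD against PBS 6 of 15 were higher and 0 lower, with 8.22% and 10.6% of all genes, and for MPG-HD against G-HD 13 of 17 were lower and 0 higher, with 11.9% and 9.85%. Over all members 19 of 20 were higher and 0 lower in G-HD against PBS (20.9% and 10.3% of all genes), with a summed ratio of 3.24 (3.05 to 3.45). In the myelin-rich other oligodendrocytes 11 of 16 were higher in G-HD against PBS (12.3% of all genes higher, 10.1% lower) and 9 of 16 higher with 1 lower in MPG-HD against PBS (7.86% and 14%).

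The signalling factors of the response were moderate in level. Stat2 was at 9.92, 24.7 and 12.01 CPM in myelin-rich members of PBS, G-HD and MPG-HD and Irf9 at 13.2, 25.7 and 18.2. Irf7, which amplifies the response in other cells, was at 7.28, 8.22 and 6.97 CPM and was the 1 measured gene under 1.5-fold. Of the antiviral effectors, Mx2 was at 54.2, 113 and 70.9 CPM, Oas1a at 18.5, 39.1 and 13.2 and Rtp4 at 18.5, 58.6 and 30.2. Ifi27, a small membrane protein and the most abundant gene of the list, was at 241, 495 and 454 CPM, and Ifi44 at 18.5, 52.4 and 27.9. G-HD had the highest level for each of these genes, and MPG-HD was near PBS for Stat2 and Oas1a but near G-HD for Ifi27.

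Some of the largest ratios rested on few cells. Isg15, a ubiquitin-like modifier, had 1, 51 and 9 UMIs in myelin-rich members of PBS, G-HD and MPG-HD, and 33 of the 51 came from 1 of the 5 cells that had any. Its ratio of 79.2 for G-HD over PBS had a counting interval of 13.6 to 3191. Over the whole list the cell with the most list UMIs gave 11.7%, 23.5% and 6.09% of the sum in each library. Without that cell the sum was 392, 866 and 679 CPM, compared with 440, 1090 and 719 with it, and the summed ratio of G-HD over PBS was 2.21 (1.98 to 2.46) compared with 2.48 (2.25 to 2.73). Then 14 of 15 genes were at least 1.5-fold higher, at a median log2 ratio of 1.33. The contrast of MPG-HD with G-HD shrank more: without that cell 7 of 15 genes were lower instead of 13 of 17, the median log2 ratio was -0.57 instead of -1.04 and the summed ratio 0.784 (0.721 to 0.853) instead of 0.660 (0.611 to 0.712). For MPG-HD against PBS 9 of 15 were then higher instead of 6. Over all members that last count was 5 of 16, and 2 of 16 without the top cell. The list UMIs per 10000 had a median over cells of 1.26 in PBS, 5.08 in G-HD and 2.95 in MPG-HD. In the myelin-rich other oligodendrocytes the summed ratio of G-HD over PBS was 1.84, and in the remaining cells, whose sum was 1454, 2057 and 1845 CPM, it was 1.41.

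Macrophage and neutrophil markers were also highest in G-HD. Their sums were lower in MPG-HD than in PBS. Macrophage genes in the myelin-rich members summed to 296, 530 and 195 CPM in PBS, G-HD and MPG-HD, with all 8 seen in G-HD and with Cd163 and Ms4a7 at 0 in PBS and MPG-HD. The 6 neutrophil genes summed to 11.3, 508 and 1.94 CPM, and in G-HD 1 cell held at least 10 of their UMIs per 10000. Their part in the interferon result was not tested.

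The promoters of 3 of these genes are printed because each holds the interferon-type repeat and has among the most UMIs of the list in the members. The sequences are RefSeq's for the rat build GRCr8, 250 bases up to the annotated start, and the search was for GAAANNGAAA on both strands. Of 23 genes on the list 15 matched 1 promoter entry, and 11 of these (73.3%) held the letters, compared with 1140 of 33469 promoters of the same length (3.41%). Each line below is written 5′ to 3′ on the gene's strand, with the matching letters in capitals. Ifi27 lies at chr6:128355062-128355311 on the plus strand, with matches that begin 169 and 84 bases before the start. Ifi44 lies at chr2:243303841-243304090 on the minus strand, with the letters in reverse complement 26 bases before the start. Oas1a lies at chr12:41330216-41330465 on the plus strand, with overlapping matches that begin 41 and 35 bases before the start. A match describes the letters and shows no binding.
Ifi27: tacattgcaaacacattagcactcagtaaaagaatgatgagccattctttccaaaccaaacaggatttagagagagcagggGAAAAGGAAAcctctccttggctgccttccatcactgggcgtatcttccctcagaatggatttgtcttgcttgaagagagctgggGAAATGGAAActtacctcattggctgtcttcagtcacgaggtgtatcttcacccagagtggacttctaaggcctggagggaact
Ifi44: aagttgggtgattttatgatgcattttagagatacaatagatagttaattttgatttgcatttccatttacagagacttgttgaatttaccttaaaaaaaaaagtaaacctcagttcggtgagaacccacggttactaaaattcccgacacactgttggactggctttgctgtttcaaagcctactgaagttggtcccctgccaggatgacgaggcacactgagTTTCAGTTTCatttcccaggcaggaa
Oas1a: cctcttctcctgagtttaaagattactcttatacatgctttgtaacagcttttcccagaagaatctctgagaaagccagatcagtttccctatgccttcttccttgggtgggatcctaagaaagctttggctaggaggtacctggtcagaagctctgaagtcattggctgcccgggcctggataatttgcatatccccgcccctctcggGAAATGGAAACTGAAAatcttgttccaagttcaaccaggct

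For class I antigen presentation the myelin-rich members and all members gave different counts. In the myelin-rich members 3 of 9 measured genes were at least 1.5-fold higher in G-HD against PBS and 0 lower (12% and 12% of all genes), with a summed ratio of 1.13 (1.03 to 1.23), and 3 were higher and 1 lower in MPG-HD against PBS (8.22% and 10.6%). Over all members 9 of 10 were higher in G-HD and 0 lower (20.9% and 10.3%), with a summed ratio of 1.87 (1.78 to 1.97), and 0 higher and 2 lower in MPG-HD (6.59% and 13.4%). For MPG-HD against G-HD 8 of 10 were lower and 0 higher over all members (24.5% and 7.19% of all genes), compared with 3 and 0 of 9 in the myelin-rich ones (11.9% and 9.85%). B2m, the light chain of class I molecules, was at 503, 580 and 514 CPM in the myelin-rich members of PBS, G-HD and MPG-HD. Tap1, the peptide transporter, was at 6.62, 19.5 and 8.91 CPM. Class II genes were 137 CPM in G-HD against 17.2 and 10.1, but 121 of their 133 UMIs (91.0%) came from 1 cell. Without the top cell of each library they stood at 15.5, 12.5 and 9.47 CPM, and 14.2%, 13.6% and 12.4% of cells had any class II UMI.

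Immediate early genes, which cells switch on within minutes of stimulation or dissociation, separated the myelin-rich members from the myelin-rich other oligodendrocytes by library. Fos was at 2180, 2110 and 2399 CPM in myelin-rich members of PBS, G-HD and MPG-HD and at 2288, 3916 and 3892 in the myelin-rich others. Jun was at 842, 747 and 986 CPM against 990, 1831 and 1634, and Junb at 609, 545 and 577 against 752, 1244 and 1319. Btg2, a growth-arrest gene of the same response, was at 243, 229 and 324 CPM against 298, 658 and 602. In these summed levels the 3 libraries of the members lay close together for the 4 genes, and in the others PBS lay below both hydrogel libraries. Of 15 measured genes, 3 were at least 1.5-fold higher and 1 lower in myelin-rich members of G-HD against PBS (12% and 12% of all genes), compared with 12 higher and 0 lower in the myelin-rich others (12.3% and 10.1%). For MPG-HD against PBS the counts were 1 and 1 in the members (8.22% and 10.6%) and 13 and 0 in the others (7.86% and 14%). Over all members 10 were higher and 0 lower in G-HD against PBS (20.9% and 10.3%), and 0 higher and 1 lower in MPG-HD (6.59% and 13.4%). The summed ratio of G-HD over PBS was 1.51 (1.48 to 1.55) over all members, where the myelin-rich members had 0.946 (0.911 to 0.981). G-HD thus lay near PBS in the myelin-rich members and above it with the myelin-poor ones included. Within a library, myelin-rich members were at least 1.5-fold below the others for 1 of 15 genes in PBS, 11 in G-HD and 12 in MPG-HD (21.5%, 21.5% and 16.4% of all genes). They were above the others for 2, 0 and 0 (17.5%, 15.7% and 17.6%). Over all members the counts below the others were 0, 0 and 5 (17.1%, 13.9% and 12.2%) and those above 0, 3 and 1 (16.7%, 17.8% and 20%). In the remaining cells the summed level was 9284, 8985 and 9117 CPM. The difference between the kinds of oligodendrocyte has no test, since each library is 1 sample.

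**Figure D5:**
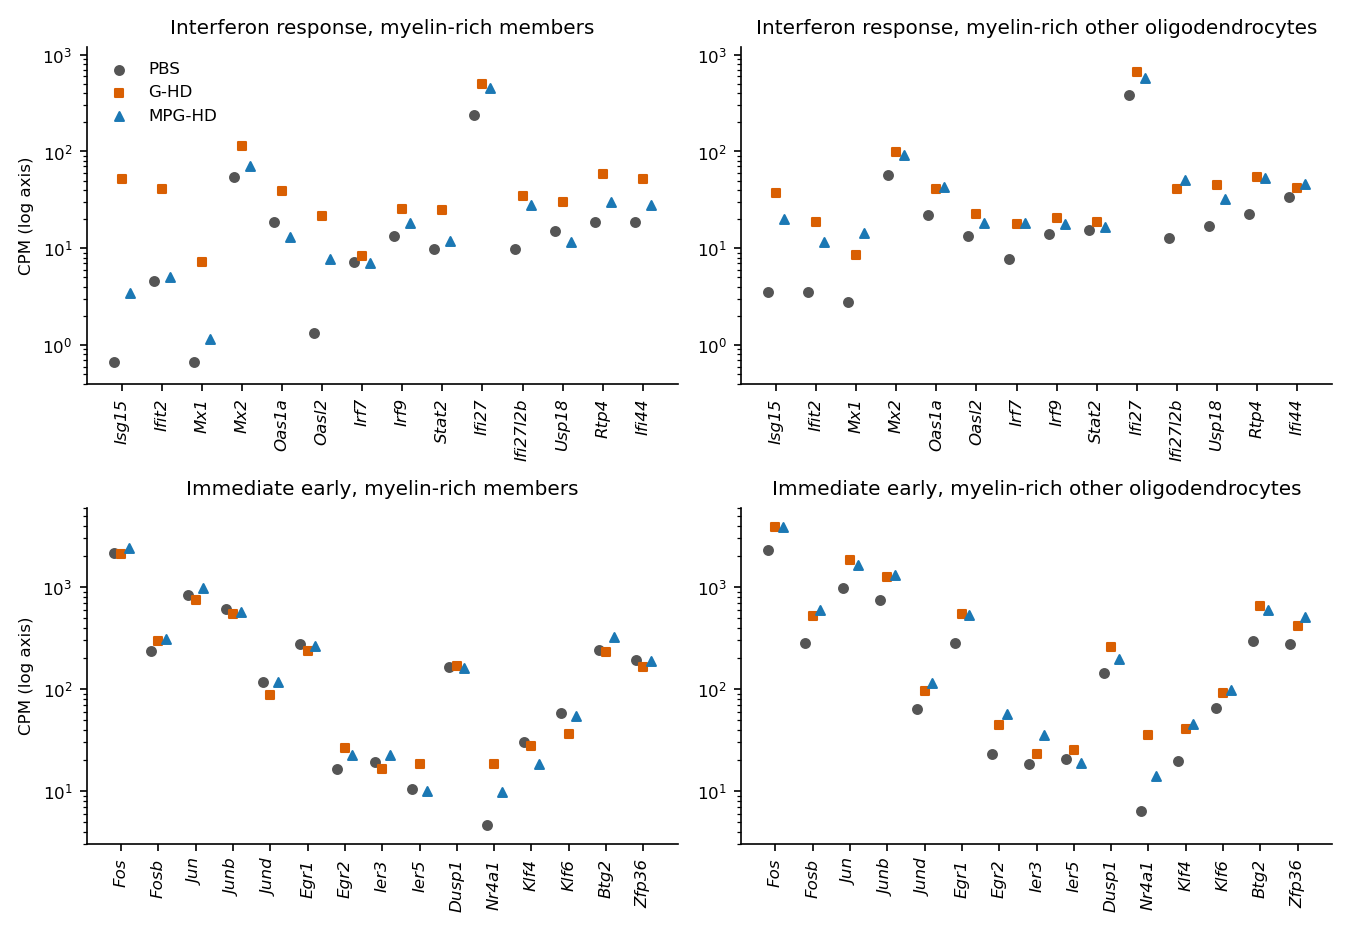
CPM on a log axis for interferon-response genes (top) and immediate early genes (bottom) in myelin-rich members (left) and myelin-rich other oligodendrocytes (right), with each gene shown having at least 60 UMIs over the 6 sums together; each symbol is 1 library. G-HD is highest for the interferon genes on the left, while the immediate early genes of PBS lie with the rest on the left and below them on the right.

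Of the stress and growth-arrest genes, Atf3 and Gadd45g were higher in both hydrogel libraries than in PBS in the myelin-rich others. Atf3, a stress-induced factor, was at 175, 139 and 184 CPM in the members and at 222, 384 and 486 in the others. Gadd45g, which arrests the cell cycle after stress, was at 177, 192 and 286 CPM against 372, 773 and 1099. Gadd45a had ratios of 0.277, 0.240 and 0.201 of members over others in PBS, G-HD and MPG-HD, so it was lower in PBS also. On the list of the integrated stress response, 0 of 9 measured genes were 1.5-fold higher or lower in G-HD against PBS in myelin-rich members. The shares of all genes were 12% and 12%. For MPG-HD against PBS the count was 0 of 10 (8.22% and 10.6% of all genes). With so few genes, both counts were near the shares of all genes. Over all members 4 of 14 were higher and 4 lower in G-HD (20.9% and 10.3% of all genes). In MPG-HD 0 of 13 were higher and 4 lower (6.59% and 13.4%). In the myelin-rich others 6 of 11 were higher and 1 lower in G-HD (12.3% and 10.1% of all genes; 4 and 1 genes without the top cell of each library) and 1 of 10 higher and 1 lower in MPG-HD (7.86% and 14%). On the list of p53 and apoptosis genes 5 of 10 were at least 1.5-fold lower in the myelin-rich members than in the others in each library, PBS included, and 0 higher, where 21.5%, 21.5% and 16.4% of all genes were lower. Over all members of G-HD 2 of 13 were lower (13.9%).

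Lipid and myelin genes showed smaller differences between libraries. Of 13 compact myelin genes, 0 were 1.5-fold higher or lower in the myelin-rich members in any of the 3 comparisons. Of all genes, 12%, 8.22% and 9.85% were that much higher and 12%, 10.6% and 11.9% lower. These shares are for G-HD against PBS, MPG-HD against PBS and MPG-HD against G-HD. With 13 genes, a count of 0 in a direction is little below such shares. The median log2 ratios were -0.06, -0.07 and -0.07. The requirement for myelin UMIs limits both the counts and these ratios. Over all members 3 of 13 were lower in G-HD against PBS (10.3% of all genes). Of 16 cholesterol synthesis genes 5 were at least 1.5-fold higher and 1 lower in the myelin-rich members of G-HD against PBS (12% and 12% of all genes), and over all members 1 of 17 was higher (20.9%). Hmgcs1 was at 49.0, 82.2 and 31.8 CPM, Idi1, which isomerises the first isoprene unit, at 52.9, 90.5 and 58.5, and Sqle, which makes squalene epoxide, at 135, 221 and 148. Without the cell with the most cholesterol UMIs in each library, 2 of the 16 genes were higher and 1 lower, so the count higher was near the share of all genes. In the other oligodendrocytes Hmgcs1 was instead highest in PBS, at 224, 142 and 63.9 CPM. Olig1, a lineage transcription factor, was at 215, 392 and 235 CPM in the members and at 346, 763 and 473 in the others, highest in G-HD in both. Syt4, a synaptotagmin on the late list, was at 34.4, 149 and 68.2 CPM, with UMIs in 10, 15 and 19 cells, and without its top cell in each library the ratio of G-HD over PBS was 4.50 (3.07 to 6.73).

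The members also varied among themselves. When each was assigned to Klk6 and Hapln2 or to S100b and Apod by the larger mean z, 6.24% of 4072 genes were at least 2-fold higher on the Klk6 and Hapln2 side in each library and 6.9% lower. These 535 genes became 219 with each cell thinned to 2000 UMIs and 213 with an oligodendrocyte minimum of 10 per 10000. Over the myelin-rich members the shares were 0.752% and 0.396% of 2527 genes, and those 29 genes became 2 when thinned and 180 with every cell weighing the same. There the S100b and Apod side held 105 cells with a median of 1400 UMIs and the Klk6 and Hapln2 side 297 cells with a median of 12975, and the part of depth in this split was not tested.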

How the data were processed

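The deposited files hold UMI counts per gene and cell barcode for 3 libraries, made by the authors with Cell Ranger 3.0.2 per the submitters' processing notes, whereas per the file headers the software was 3.1.0. Those notes name the builds GRCm38 and mm10, although the 25199 features carry rat identifiers; the rat build is not given in the sources used here. In the 3 libraries, 134 symbols on several rows were left out.

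UMIs were summed over cells of a library and scaled to CPM. Ratios have exact conditional Poisson intervals at 95%, shares exact Clopper-Pearson intervals, and a count of 0 was set to 3 UMIs for a bound. Total UMIs in myelin-rich members were 1511653 in PBS, 972856 in G-HD and 2580729 in MPG-HD. Genes needed 50 UMIs in both sums together for a 2-fold call and 10 for a 1.5-fold count on a list. No test was made, since each condition has 1 library.

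Genes named for a library comparison had a symbol, at least a 2-fold ratio, the same direction with every cell weighing the same and no cell with over 25% of the UMIs, ranked by the interval bound nearest 1. The first 10 per direction were taken against PBS, the first 6 for MPG-HD against G-HD, and the first 15 for members over other oligodendrocytes. From lists, the most abundant members and those past 2-fold were named. Some items that the rules name are not reported here. The members and lists were chosen with earlier results of these data known, and the myelin-rich condition and the list values without the top cell were added after seeing the data.

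No doublets were removed; 349 cells with the highest Scrublet scores, 42 of them members, were left out in an alternative. Alternatives also varied the cell filter, selection, scores, thinning, weighting and UMI minimum. The ratio calculation was tested on simulated data. Python 3.11.15 was used with NumPy 2.4.6, SciPy 1.17.1, pandas 2.3.3 and Scanpy 1.11.5.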

Additional observations from a re-analysis of the deposited data

Results flagged for a closer look

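Car2, carbonic anhydrase 2, was 2.19-fold higher in MPG-HD than in G-HD in the myelin-rich members and at 0.657 in the myelin-rich other oligodendrocytes, opposite directions whose counting intervals (1.62 to 3.02 and 0.489 to 0.888) do not overlap. The difference between the kinds of cell was not tested, because each condition has 1 library. In the members Car2 was at 202 CPM in PBS, 51.4 in G-HD and 113 in MPG-HD. In the other oligodendrocytes it was at 115, 63.5 and 41.7 CPM, and in the remaining cells it was 3.18-fold higher in G-HD than in PBS.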

How the results depend on the processing

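Of the values that answer a comparison, 182 under an alternative stayed near the main one and 42 moved, and of those for single genes 2435 stayed, 151 moved and 2 reversed. The reversals were the log2 ratio of Fam180a, G-HD over PBS in members, at -0.0226 with A computed without Apod, and the log2 ratio of Cavin2, MPG-HD over PBS in members, at 0.0357 in myelin-rich cells alone, an alternative chosen after seeing the data. The cause was not tested.

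Numbers of genes past 2-fold, G-HD over PBS in members and in the other comparisons, moved with the UMI minimum by construction. With 100 UMIs they were 244 for G-HD over PBS, 54 for MPG-HD over PBS and 330 for MPG-HD over G-HD in all members (main 455, 134 and 589) and 29, 20 and 22 in myelin-rich members (main 75, 60 and 68). With 20 UMIs they were 927, 411 and 1121, and 339, 269 and 308. In myelin-rich cells alone the counts over members were 75, 60 and 68. With every cell weighing the same, all members gave 759 for G-HD over PBS and 283 for MPG-HD over PBS, and myelin-rich members 320, 279 and 267. Without Apod in A, MPG-HD over PBS gave 272. Myelin-rich members over myelin-rich others gave 190 with 100 UMIs (main 302).

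The split of Klk6 and Hapln2 against S100b and Apod moved most. Over all members (main 535) it gave 213 with an oligodendrocyte minimum of 10, 219 thinned to 2000 UMIs, 328 and 846 with minima of 100 and 20 UMIs, and 29 in myelin-rich cells. Over myelin-rich members (main 29) it gave 13 with 500 genes and 10% mitochondrial UMIs, 17 with A above B by 0.25, 2 thinned, 180 with every cell weighing the same, 11 and 93 with minima of 100 and 20 UMIs, 115 without the cell with most UMIs of the gene, and 50 and 17 with myelin minima of 100 and 400.

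Members were 45.0%, 38.2% and 39.8% of oligodendrocytes in PBS, G-HD and MPG-HD with A above B by 0.25, and 41.5% of myelin-rich ones in MPG-HD. In myelin-rich cells alone they were 44.8% in G-HD and 46.9% in MPG-HD.

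No paired analysis was possible because each group has 1 library. For the same reason no replicate was left out. Genes under about 50 UMIs in the 2 sums together were beyond the depth here, and G-HD, with 81 myelin-rich members, was the least precise library.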
